A study of Mus musculus with 15 samples.

Results

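The liver transcripts of 10 apolipoprotein genes were measured by RNA-seq in mice lacking the estrogen receptor ESR1 and in their wild-type littermates. The genes were taken by their symbols, *Apoa1*, *Apoa2*, *Apoa4*, *Apoa5*, *Apob*, *Apoc1*, *Apoc2*, *Apoc3*, *Apoe* and *Apom*, from a table of 55573 genes, and each symbol matched 1 row. All 10 passed the filter on low counts, which left 17655 genes to be tested. Each of 15 mice, all 8 weeks old, gave 1 library, with 3 females and 3 males among the WT mice and 5 females and 4 males among the ESR1KO mice. All carried the labelled strain B6N(Cg)-Esr1tm4.2Ksk/J. ESR1KO mice were homozygous for a null *Esr1* allele lacking exon 3, and WT mice had no null allele. They came from matings of heterozygous parents. The receptor is lost in every tissue, and ESR1KO mice of both sexes are infertile with raised testosterone, so an effect of the liver receptor and an effect of the changed hormones cannot be told apart. The sources used here do not say whether mice were fed or fasted, or at what hour the livers were taken.

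Apolipoproteins are the proteins of the lipoprotein particles that carry triglyceride, cholesterol and phospholipid in plasma, and hepatocytes are their main source. APOB is the structural protein of the very low density particles that the liver secretes, whereas APOA1 and APOA2 are the main proteins of high density lipoprotein (HDL). The smaller exchangeable apolipoproteins move between particles: APOC2 is the cofactor of lipoprotein lipase, APOA5 favours and APOC3 holds back the lipolysis that this enzyme carries out, APOE is a ligand of the receptors that clear remnants, and APOM carries sphingosine-1-phosphate on HDL.

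Total counts ranged from 27799061 to 78624766 per library, and the 10 genes took between 3.62% and 4.90% of them. Levels are given as CPM, counts scaled by TMM to a common library size, which do not correct for transcript length. Of the ESR1KO females, 3 stood apart from the other 12 libraries by the share of counts from the mitochondrial genome. This share was 11.2% in ESR1KO female 1, 7.40% in ESR1KO female 2 and 1.97% in ESR1KO female 4, and between 4.33% and 6.10% elsewhere. The differences between genotypes in females are therefore also given without females 1 and 2 for the genes described, and the counts of the 10 genes called also without female 4. *Esr1* averaged 81.9 ± 6.79 CPM (SD, n = 3) in WT females and 13.1 ± 4.01 (n = 5) in ESR1KO females, and 36.1 ± 14.1 (n = 3) against 11.8 ± 3.35 (n = 4) in the males. It fell in ESR1KO mice of both sexes, with adjusted p values of 4.47e-06 and 0.00445, and every ESR1KO library lay below every WT library of its sex. All 8 hepatocyte markers were present.

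The genes sit in 2 clusters and at 3 other places of GRCm38. *Apoa1*, *Apoc3*, *Apoa4* and *Apoa5* lie within 43.3 kb at chr9:46228580-46271919, with *Apoc3* on the minus strand and the others on the plus strand. *Apoc2*, *Apoc1* and *Apoe* lie within 27.6 kb at chr7:19671579-19699188, all on the minus strand. *Apoa2* is at chr1:171225054-171226379, *Apob* at chr12:7977648-8016835 and *Apom* at chr17:35128997-35132050. In the GENCODE M21 annotation of this build, 7 of the 10 share no exon base with another gene. Of the exon bases of *Apoa4*, 30.2% belong to no other gene, and 79.2% of those of *Apoa5*, since antisense genes cross both. Whether the counting used strand is not given in the sources used here, so for these a part of the reads may not be told apart from antisense RNA.

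*Apoc2* was limited more severely. A read-through gene on the same strand, *Gm44805*, shares 646 bases with it, and only 20.5% of the *Apoc2* exon bases, 167 bases, are its own. The whole coding sequence of 294 bases, spread over 3 exons at chr7:19671761-19673601, is identical in both annotated genes. It is printed below because a read that lies wholly within it matches both genes, with the start and stop codons in capitals.

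Apoc2 coding sequence: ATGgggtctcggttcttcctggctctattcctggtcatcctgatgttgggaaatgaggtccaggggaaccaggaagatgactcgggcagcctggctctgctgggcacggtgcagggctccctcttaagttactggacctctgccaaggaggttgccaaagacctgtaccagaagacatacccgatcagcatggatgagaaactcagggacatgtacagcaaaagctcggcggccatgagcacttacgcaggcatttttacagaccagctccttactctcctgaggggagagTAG

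The counts of *Apoc2* were between 65 and 191 per library, those of *Gm44805* between 61 and 182, and those of the neighbouring apolipoprotein gene *Apoc4* between 11801 and 36976. How the counting treated reads that match both genes is not given in the sources used here. What share of the *Apoc2* transcript its count covers is therefore not known, and its level is not compared with those of the other genes.

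Per kilobase of exon, *Apoa2* and *Apoe* had the highest levels of the 9 genes compared. In WT females these were 7433 CPM per kilobase for *Apoa2*, the second protein of HDL, and 5952 for *Apoe*. The order of these 2 depended on the length used: with the longest transcript in place of all exon bases, *Apoe* had 9038 and *Apoa2* 7705, and *Apoe* was likewise first in both groups of males. *Apoa1* followed with 3403 and *Apoc1* with 2799, and these neighbours overlapped: the WT females spanned 2675 to 4375 for *Apoa1* and 2616 to 2939 for *Apoc1*. *Apoc3* came next with 1107, above *Apob* with 963, *Apoa5* with 462, *Apom* with 259 and *Apoa4* with 167, and of these neighbours none overlapped among the WT females. *Apob* has the longest transcript and the most counts of the 10 genes, between 1.31% and 1.81% of a library. In WT males the levels of *Apoa1* and *Apoe* overlapped, at 5297 and 5356 CPM per kilobase, and the level of *Apob* was 1236, above that of *Apoc3*, 915, an order that also turned with the longest transcript (1236 and 1309). Per kilobase of exon, *Apoa2* had 9542 in ESR1KO females and 9312 in ESR1KO males, and *Apoa4*, the lowest of the 9 genes, 113 and 117. The group means of log2 CPM of *Apoa4* spanned the widest range of the 10 genes. The plot of CPM by mouse shows all values.

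**Figure D1:**
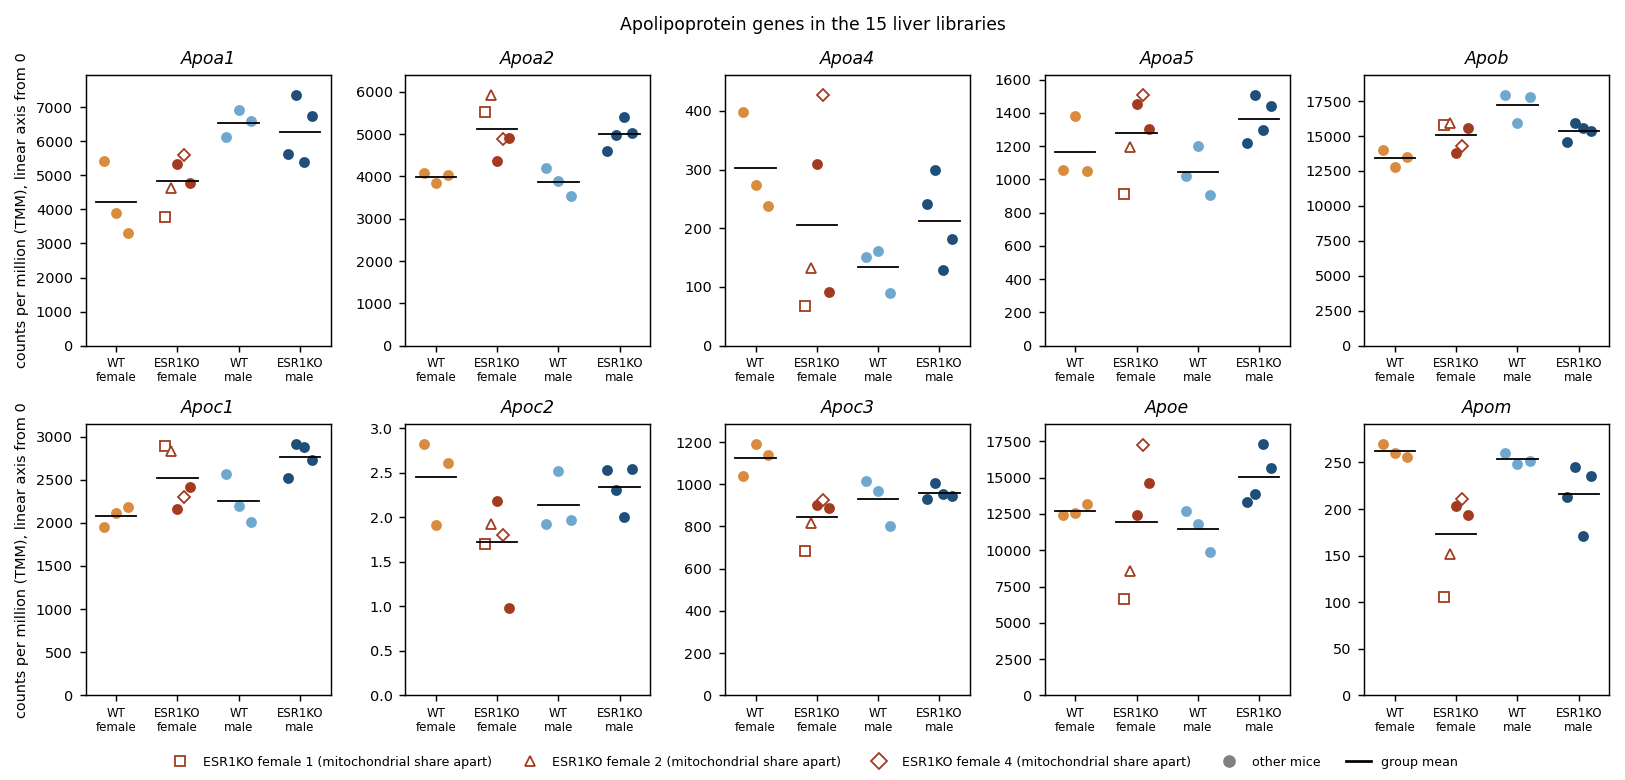
TMM-scaled CPM of the 10 apolipoprotein genes in each of the 15 livers, with 1 point per mouse, a bar at the group mean and axes that start at 0. ESR1KO females 1, 2 and 4, whose mitochondrial share stood apart, are open symbols. Females 1 and 2 are the 2 lowest of their group for *Apoe*, *Apoc3* and *Apom* and the 2 highest for *Apoa2*, *Apoc1* and *Apob*.

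None of the 10 genes passed an adjusted p of 0.05 by edgeR in any of the comparisons, which asked whether the sexes differed in each genotype and whether the loss of ESR1 changed the liver in each sex. For ESR1KO females against WT females, 0 of 10 were called, beside 5.71% of all genes tested. At an unadjusted p under 0.05 there were 4 (*Apoa2* with a positive, *Apoc2*, *Apoc3* and *Apom* with a negative difference), where 22.5% of all genes passed. DESeq2 called 3 of them, *Apoa2*, *Apoc3* and *Apom*, beside 8.7% of all genes. For ESR1KO males against WT males, 0 of 10 were called by edgeR (1.42% of all genes), 2 passed unadjusted (11.9%), *Apoa2* and *Apoa5*, and DESeq2 called 1 (2.83%), *Apoa2*.

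For WT females against WT males, edgeR called 0 (4.87% of all genes), 3 passed unadjusted (17.3%), *Apoa1*, *Apoa4* and *Apob*, and DESeq2 called *Apoa1* and *Apob* (6.94%). For ESR1KO females against ESR1KO males, both edgeR (0.272% of all genes) and DESeq2 (2.58%) called 0, and *Apoa1* and *Apoc2* passed unadjusted (17.5%). For the interaction, which subtracts the genotype effect of males from that of females, both edgeR (1.94% of all genes) and DESeq2 (3.36%) called 0, and *Apoc2* and *Apoc3* passed unadjusted (14.3%). A difference between the sexes in the response of these genes to the loss of ESR1 was thus not shown by either tool. The median log2 fold change of the 10 genes was 0.10 for the WT sexes, -0.16 for the ESR1KO sexes, 0.02 for the genotypes in females, 0.21 for those in males and -0.31 for the interaction, where the medians of all genes tested lay between -0.01 and 0.01. All p values weigh a difference between groups against an estimate of the spread between mice. In bulk liver, fewer hepatocytes and less RNA per hepatocyte cannot be told apart. Groups of 3 to 5 mice can lie apart without a true difference. The share of all genes tested whose groups do not overlap was not counted, so the cases named below are descriptions only.

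Single libraries moved some of these calls. *Apoc3* in females was called by edgeR in 4 fits that each left out 1 library, WT male 3 or ESR1KO female 3, 4 or 5, with 0.0465 the lowest adjusted p. Across all 15 such fits its log2 fold change stayed between -0.47 and -0.35. *Apom* in females was called in 4, without ESR1KO female 1, 3, 4 or 5, with 0.0401 the lowest. *Apoa1* between the WT sexes was called in 2, without WT female 1 (adjusted p = 0.0256) or ESR1KO female 1, and without WT female 3 its adjusted p was 0.312. The ESR1KO libraries enter the comparison of the WT sexes through the shared estimate of the spread. Without ESR1KO females 1 and 2, *Apoa1* and *Apob* were called between the WT sexes, with adjusted p values of 0.0323 and 0.0416. That fit called 8.99% of all genes between the WT sexes, against 4.87% with all libraries. None of the 10 genes was called in its other 4 comparisons. Without females 1, 2 and 4 the same counts of 2 and 0 were found, beside 9.72% of all genes between the WT sexes.

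**Figure D2:**
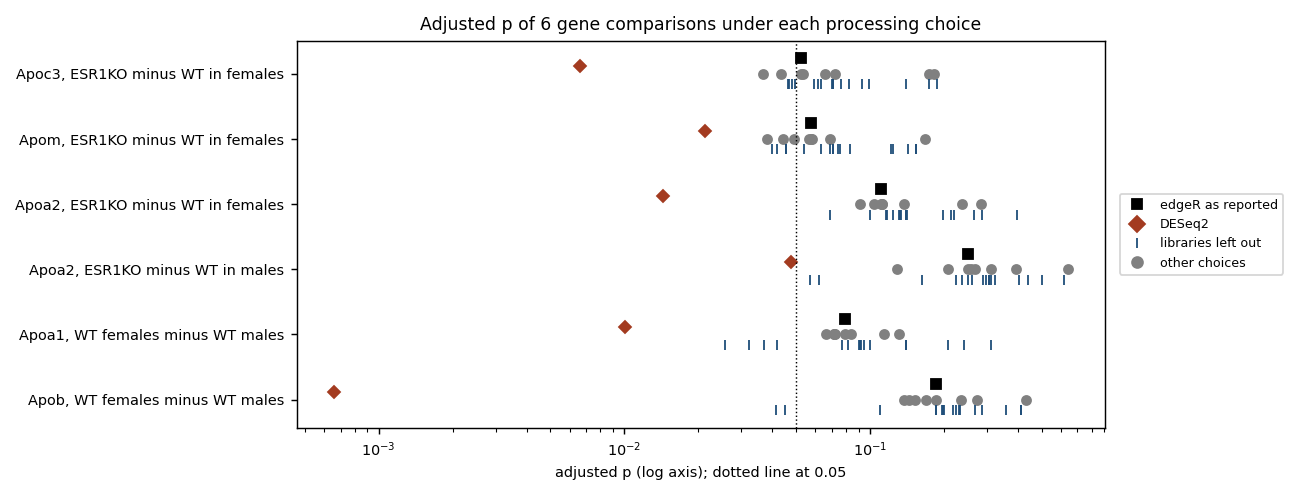
Adjusted p, on a log axis, of 6 gene comparisons under each processing choice: edgeR as reported (squares), DESeq2 (diamonds), edgeR with libraries left out (ticks) and edgeR under the other choices (grey dots). The dotted line is at 0.05, and all squares lie to its right. All diamonds lie to its left, from 0.000656 for *Apob* to 0.0478 for *Apoa2* in males. The side of the diamonds was fixed by the choice of the 6, which are the comparisons of apolipoprotein genes that DESeq2 called.

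*Apob*, whose product is the scaffold of liver-derived particles, was lowest in WT females. Its CPM were 13988, 12805 and 13477 in WT females and 17963, 15943 and 17770.0 in WT males. They were 15755, 15921, 13788, 14286 and 15585 in ESR1KO females and 14576, 15902, 15574 and 15351 in ESR1KO males. Every WT female lay below every WT male, while the ESR1KO sexes overlapped. Between the WT sexes this was 1.28-fold lower in females, a log2 fold change of -0.36 with a standard error of 0.14 and an adjusted p of 0.185, and DESeq2 gave an adjusted p of 0.000656. Between the ESR1KO sexes the log2 difference was -0.03, with a 95% interval of -0.27 to 0.22. All ESR1KO males lay below all WT males, with a log2 fold change of -0.17 (adjusted p = 0.691). In females the groups overlapped, with 0.17 (adjusted p = 0.463), and 0.12 without ESR1KO females 1 and 2. The interaction was 0.33, with an interval of -0.05 to 0.72.

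*Apoa1*, the main HDL protein and activator of LCAT, had the other difference between the WT sexes that DESeq2 called. Its CPM were 5408, 3904 and 3306 in WT females and 6113, 6932 and 6598 in WT males. Every WT female was below every WT male, although WT female 1 was nearer to the males than the other females were. The level was 1.56-fold lower in females, a log2 fold change of -0.64 with a standard error of 0.20 and an adjusted p of 0.0789, and 0.0100 by DESeq2. ESR1KO females had 3785, 4641, 5332, 5603 and 4778 CPM and ESR1KO males 5629, 7369, 5385 and 6737, and these groups overlapped. Their log2 difference was -0.38 (adjusted p = 0.244), and without ESR1KO females 1 and 2 it was -0.26. The genotypes overlapped in both sexes, with log2 fold changes of 0.20 in females (0.31 without ESR1KO females 1 and 2) and -0.06 in males.

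Beside the sex differences of *Apob* and *Apoa1*, the summed CPM of the 8 hepatocyte markers was 109100 to 113950 in WT females and 80354 to 80614 in WT males. Over the 8 markers the median log2 fold change between the WT sexes was -0.04, with a range of -0.35 to 0.66. EdgeR called *Alb* alone, higher in females, beside 4.87% of all genes. DESeq2 also called *Fgb* and *Ttr*, both lower in females, beside 6.94% of all genes. Of these 8, *Alb* took 8.40% to 9.48% of the counts in WT females against 5.20% to 5.68% in WT males. The part of this difference in total composition in the values of *Apob* and *Apoa1* was not tested.

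*Apoa2*, the second HDL protein, was higher in ESR1KO mice of both sexes, without passing the test by edgeR. WT females had 4075, 3852 and 4047 CPM and ESR1KO females 5529, 5936, 4358, 4882 and 4914. WT males had 4198, 3899.7 and 3540.3 CPM and ESR1KO males 4597, 4977, 5409.5 and 5019. In each sex all ESR1KO mice lay above all WT mice, with similar sizes of 1.28-fold higher in females and 1.29-fold higher in males. The log2 fold changes were 0.36 (standard error 0.13, adjusted p = 0.111) and 0.37 (standard error 0.14, adjusted p = 0.252), so neither passed by edgeR. DESeq2 called both, with adjusted p values of 0.0143 and 0.0478. ESR1KO females 1 and 2 had the highest CPM of the 15 mice. Without them the log2 fold change in females was 0.24 (adjusted p = 0.198). The 95% interval of its log2 difference between the sexes was -0.26 to 0.35 in WT mice and -0.21 to 0.29 in ESR1KO mice.

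Of the genes that act on lipolysis, *Apoc3* had the lowest adjusted p of the 10 genes in the comparison of genotypes in females. *Apoc3* holds back lipoprotein lipase and the uptake of remnants. WT females had 1041, 1189 and 1137 CPM and ESR1KO females 685, 816, 901, 924 and 888, so that all ESR1KO females lay below all WT females. This was 1.33-fold lower, a log2 fold change of -0.41 with a standard error of 0.12 and an adjusted p of 0.0524. Leaving out ESR1KO females 1 and 2, the 2 lowest, it was -0.31 with an adjusted p of 0.0826, and without females 1, 2 and 4 it was -0.33 (0.141). In males the groups overlapped, with 1014, 969 and 802 CPM in WT and 928, 1006, 954 and 944 in ESR1KO mice and a log2 fold change of 0.05. The interaction, -0.46 with an interval of -0.83 to -0.09, had an adjusted p of 0.247. WT females lay above WT males (log2 difference 0.27, adjusted p = 0.312), and ESR1KO females below ESR1KO males (-0.19, 0.390), neither passing the test.

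*Apoa5*, which favours lipolysis, overlapped between the sexes in both genotypes. WT females had 1054, 1384 and 1053 CPM and ESR1KO females 914, 1197, 1456, 1509.9 and 1304, and these overlapped too. WT males had 1023, 1203 and 904 CPM, below all ESR1KO males with 1217, 1507, 1294 and 1439. That difference was 1.31-fold higher in ESR1KO males (log2 fold change 0.39, interval 0.02 to 0.75, adjusted p = 0.382). In females the log2 fold change was 0.13, and 0.29 without ESR1KO females 1 and 2. *Apoc2*, the cofactor of lipoprotein lipase, was counted at 1.91 to 2.82 CPM in WT and 0.981 to 2.19 in ESR1KO females, and at 1.93 to 2.52 in WT and 2.0 to 2.54 in ESR1KO males. Its log2 fold change in females, -0.53 (adjusted p = 0.153), carries the same limit, and was -0.60 (adjusted p = 0.199) without ESR1KO females 1 and 2.

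*Apoe*, the ligand of remnant receptors, varied widely among ESR1KO females. WT females had 12450.0, 12543 and 13186 CPM, a narrow range, and ESR1KO females 6667, 8573, 12459, 17263 and 14655. The ESR1KO females thus spanned the WT females, with females 1 and 2 below and females 4 and 5 above all of them. The log2 fold change in females was -0.09 (adjusted p = 0.853), and 0.22 without females 1 and 2. WT males had 12717, 11782 and 9852 CPM and ESR1KO males 13311, 13908, 17300.0 and 15660.0, without overlap. Here the level was 1.31-fold higher in ESR1KO males, a log2 fold change of 0.39 with a standard error of 0.25 and an adjusted p of 0.607. The spread used for that test is shared with the ESR1KO females, and without females 1 and 2 the adjusted p was 0.147. Macrophages also make *Apoe*, and the summed CPM of 8 Kupffer cell and macrophage markers was 426 to 458 in WT males and 351 to 452 in ESR1KO males. *Apoc1*, the next gene of the same cluster, which hinders the receptor uptake of particles, averaged 2082 ± 123 CPM (SD, n = 3) in WT females, 2517 ± 325 (n = 5) in ESR1KO females, 2255 ± 285 (n = 3) in WT males and 2759 ± 178 (n = 4) in ESR1KO males. Its groups overlapped in every comparison, with log2 fold changes between genotypes of 0.27 in females (adjusted p = 0.234) and 0.29 in males (adjusted p = 0.428). In females it was 0.14 (adjusted p = 0.513) without ESR1KO females 1 and 2, the 2 highest of their group.

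*Apom* had lower values in ESR1KO mice of both sexes, without passing the test by edgeR. WT females had 269.5, 260.2 and 256 CPM and WT males 260.4, 248 and 251, all close together. ESR1KO females had 105, 152, 203, 211 and 193 CPM, all below every WT mouse. ESR1KO males had 213, 245, 171 and 236, all below the WT males as well. In females the level was 1.51-fold lower, a log2 fold change of -0.60 with a standard error of 0.18 and an adjusted p of 0.0574, and DESeq2 gave 0.0214. Without ESR1KO females 1 and 2 the log2 fold change was -0.37 (adjusted p = 0.0756) and without females 1, 2 and 4 it was -0.41 (0.125). In males it was -0.23, with an interval of -0.62 to 0.17. The genotype effects of the sexes differed by -0.37 (log2, adjusted p = 0.526).

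*Apoa4*, an apolipoprotein of intestinal chylomicrons and HDL that mouse liver also makes, varied widely within groups. WT females had 399, 274 and 238 CPM and WT males 151, 161 and 89.9, so that all WT females lay above all WT males. This was 2.26-fold higher in females, a log2 fold change of 1.18 with a standard error of 0.53 and an adjusted p of 0.263. When the 2 WT groups were fitted alone it passed, with an adjusted p of 0.0299. ESR1KO females had 68.4, 132, 309.5, 428 and 91.8 CPM and ESR1KO males 241, 300.1, 128 and 181. The log2 difference between them was -0.05 with an interval of -0.96 to 0.87. The ESR1KO females spanned the whole range of the WT mice. Between the genotypes the log2 fold change was -0.56 in females (adjusted p = 0.504) and 0.67 in males (adjusted p = 0.672). That in females was -1.01 without ESR1KO female 4, -0.31 without WT female 1 and -0.14 without ESR1KO females 1 and 2. Intestinal epithelium is the other main site of *Apoa4* synthesis. Of its 7 markers, *Cdx1*, *Cdx2*, *Alpi* and *Sis* had a count of 0 in all libraries, and the summed level of 33.3 to 64.0 CPM in WT females, 40.9 to 47.9 in WT males, 53.0 to 104 in ESR1KO females and 64.6 to 97.3 in ESR1KO males was nearly all from *Fabp2*, which the liver also expresses. The counts of *Apoa4* may include antisense RNA.

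**Figure D3:**
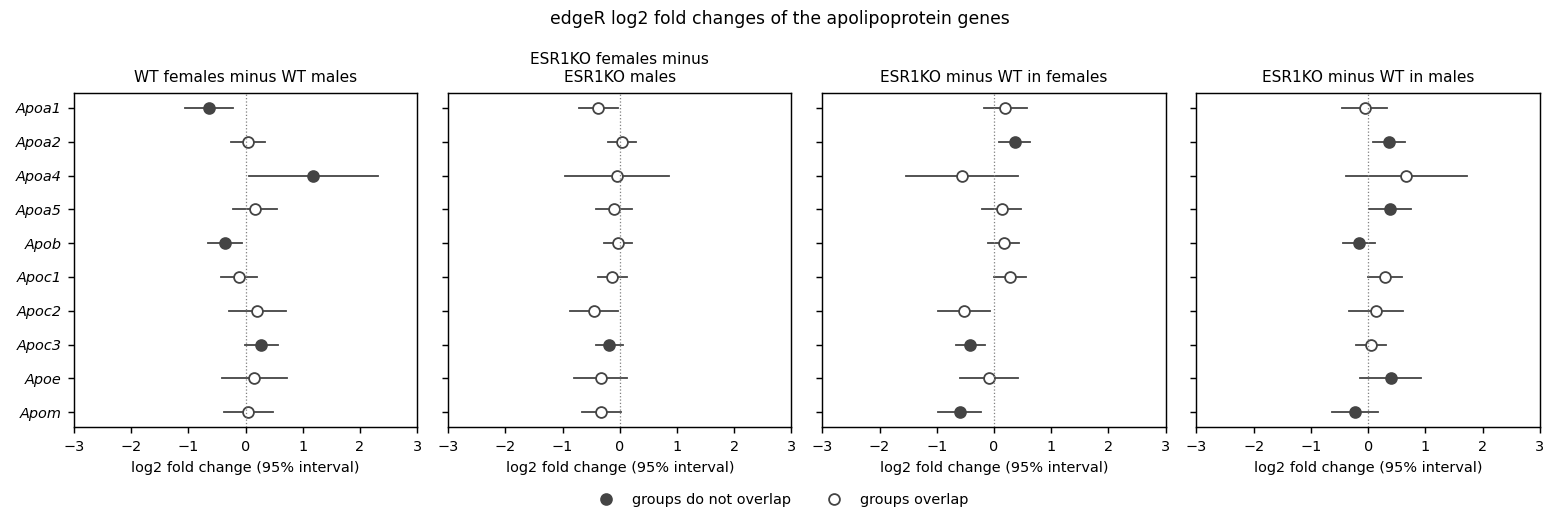
Log2 fold changes by edgeR of the 10 genes in 4 comparisons, with bars for the 95% interval. Filled points mark genes whose 2 groups do not overlap, a share that was not counted over all genes tested. The interval of *Apoa4* is the widest in each panel, and the points of *Apom* and *Apoc3* in females, at -0.60 and -0.41, are the only filled points below 0 there.

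Several of the genes moved with the mitochondrial share among ESR1KO females. A part of this share was *mt-Rnr2*, a ribosomal RNA, the class of RNA that the authors removed. It took 7.29% of counts in ESR1KO female 1, 4.37% in ESR1KO female 2 and 0.431% in ESR1KO female 4. In the 12 other libraries *mt-Rnr2* took 2.58% to 3.54%. In ESR1KO female 1, with the highest share, *Apom*, *Apoe*, *Apoc3*, *Apoa1*, *Apoa4* and *Apoa5* were the lowest of the 5 females. In ESR1KO female 4, with the lowest share, *Apom*, *Apoe*, *Apoc3*, *Apoa1*, *Apoa4* and *Apoa5* were the highest. *Apoa2*, *Apoc1* and *Apob* had their 2 highest values in females 1 and 2, but their lowest was not in female 4. It was in ESR1KO female 3, with a share of 4.73%, at 4358, 2161 and 13788 CPM. Female 4 had 4882, 2297 and 14286 CPM. For *Apob* the values of females 1 and 2 were 15755 and 15921 CPM, close to the 15585 of ESR1KO female 5. In the 12 other libraries, whose share lay within 4.33% and 6.10%, *Apom* spanned 171 to 269.5 CPM. Scaling all libraries without the mitochondrial genes left *Apom* at -0.58 and *Apoc3* at -0.39 (log2) in females. Whether the state of these 3 livers or of their RNA set the values of the apolipoprotein genes was not tested.

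**Figure D4:**
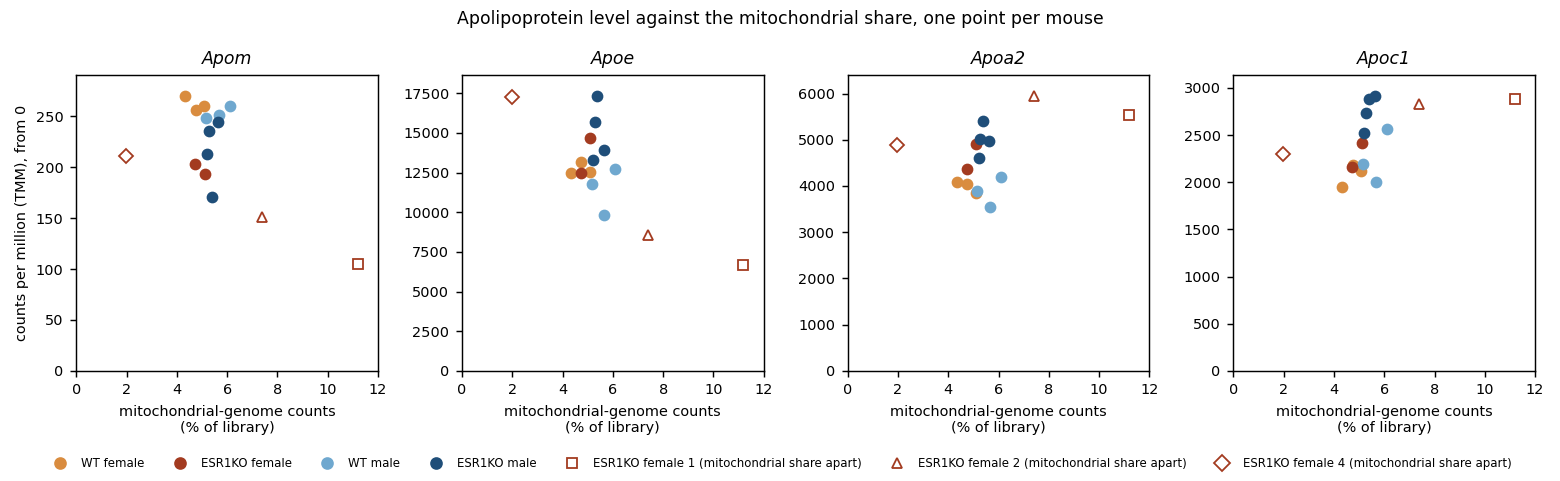
CPM of *Apom*, *Apoe*, *Apoa2* and *Apoc1* against the percentage of counts from the mitochondrial genome, with 1 point per mouse and y axes that start at 0. ESR1KO females 1 and 2 (open square and triangle) lie at 11.2% and 7.40% with the 2 lowest values of *Apom* and *Apoe*, and ESR1KO female 4 (open diamond) at 1.97%.

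Over the 15 libraries, the highest correlation among the 10 genes was that of *Apoa2* and *Apoc1*, which lie on different chromosomes. Their Pearson r of log2 CPM was 0.853, Spearman rho 0.843, and r was 0.877 after group means were removed and 0.814 without ESR1KO females 1 and 2. Without these females *Apoa2* and *Apoe* had a higher r of 0.901, against -0.071 over all 15, so the closest pair depended on them. *Apoc3* and *Apom* had an r of 0.779, which was 0.463 without those females. *Apoc3* and *Apoe* had 0.610 and 0.069. All libraries share these genotype and sex groups and the same scaling, and the values are descriptions without a test. The genes most like *Apoa4*, the gene with the widest range of group means, were *Mvd* (r = 0.897) and *Fads1* (0.87), then *Cyp20a1*, *Mrfap1* and *Bhmt2*. Those most like *Apob*, which has the most counts, were *Mup12* (0.93), *Cped1* (0.927), *Mup1* (0.907), *C9* (0.895) and *Mep1b* (0.888), each over the same 15 libraries. *Mup12* and *Mup1* belong to a family of near-identical genes between which reads can be split.

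Of 19 genes of the machinery that loads and secretes APOB particles, 1 was called between the WT sexes, 1 between the genotypes in each sex and 1 for the interaction, each time *Tm6sf2*. A single gene of 19 is near the 4.87% of all genes called between the WT sexes and the 5.71% called in females, so these counts set the list apart in neither. Of all genes, 1.42% were called in males and 1.94% for the interaction. DESeq2, and the fit without ESR1KO females 1 and 2, also called *Sort1* between the WT sexes, lower in females, beside 6.94% and 8.99% of all genes. *Tm6sf2*, which is needed to lipidate APOB particles in the secretory pathway, had 41.2, 37.8 and 32.7 CPM in WT females and 16.4, 18.2 and 15.3 in WT males. It was 2.24-fold higher in WT females (log2 fold change 1.16, adjusted p = 0.000725). It fell in ESR1KO females (log2 fold change -0.69, adjusted p = 0.0196) to 14.9, 20.9, 24.8, 28.8 and 25.9 CPM, and rose in ESR1KO males (log2 fold change 0.75, adjusted p = 0.0421) to 27.9, 27.2, 24.4 and 31.9. The interaction was -1.44 with an adjusted p of 0.00242, and -1.24 (0.000498) without ESR1KO females 1 and 2. The ESR1KO sexes overlapped (log2 difference -0.27, interval -0.59 to 0.04). The rise in males lost its call in 11 of the 15 fits that left out 1 library, with an adjusted p of up to 0.204 (without WT male 3). The fall in females lost its call without WT female 1 or 2, with an adjusted p of up to 0.0956 (without WT female 1). In the fit without ESR1KO females 1 and 2 the fall was -0.49 (adjusted p = 0.0242). *Mttp*, the protein that transfers lipid to APOB, had log2 fold changes of -0.04 in females and 0.20 in males (adjusted p = 0.911 and 0.686). It had 253 to 443 CPM in ESR1KO females and 492 to 517 in ESR1KO males. Between these sexes edgeR called 0 of the list, and DESeq2 called *Mttp* and *Acat2*, lower in females, beside 2.58% of all genes. Over the 19 genes the median was 0.01 in females and 0.03 in males.

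Of 18 genes of lipases, lipid transfer and their modulators, 1 was called in each of 3 comparisons, beside 4.87% of all genes between the WT sexes, 5.71% in females and 1.42% in males. Without ESR1KO females 1 and 2 there were 2 between the WT sexes, *Lipc* and *Pon1*, both higher in females, beside 8.99% of all genes. *Lipc*, the hepatic lipase, was 1.52-fold higher in WT females (211 to 227 CPM, against 119 to 163 in WT males, adjusted p = 0.00657). *Abcg5*, a subunit of the sterol exporter into bile, fell in ESR1KO females (log2 fold change -0.49, adjusted p = 0.0282). It lost its call without WT female 1 or 3, or ESR1KO female 2, with an adjusted p of up to 0.156 (without WT female 3). Its adjusted p without ESR1KO females 1 and 2 was 0.0806. *Pltp*, the phospholipid transfer protein, rose 4.58-fold in ESR1KO males (adjusted p = 0.0160), with 22.8 to 37.7 CPM in WT and 90.0 to 151 CPM in ESR1KO males, and lost its call without WT male 1 or 3, with an adjusted p of up to 0.106 (without WT male 3). *Lpl*, *Lcat* and *Abca1* did not pass by edgeR with all libraries. In females their log2 fold changes were 0.60, -0.57 and -0.06 (adjusted p from 0.0633 to 0.774). *Lcat* was called without ESR1KO female 5 (adjusted p = 0.00928), and *Lpl* without ESR1KO female 1 or 5. Without ESR1KO females 1 and 2 *Lpl* alone of the list was called in females, higher (adjusted p = 0.0425), beside 4.47% of all genes. DESeq2 called *Lpl* and *Gpihbp1* higher and *Lcat* and *Abcg5* lower in females, beside 8.7% of all genes. The list medians were 0.06 for the WT sexes, -0.10 for the females and 0.12 for the males.

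Of 17 receptors and uptake genes tested, *Vldlr* and *Sdc1* were higher and *Lrp2* lower in WT females than in WT males, where 4.87% of all genes were called. The list had 1 gene called between the genotypes in females (5.71% of all genes), 2 in males (1.42%) and 2 for the interaction (1.94%). *Vldlr*, the very low density lipoprotein receptor, had 8.60, 9.80 and 8.46 CPM in WT females and 1.21, 1.27 and 0.999 in WT males (adjusted p = 2.47e-07). In ESR1KO males it rose 4.89-fold to 5.17, 4.25, 7.11 and 5.93 (adjusted p = 4.99e-05). In ESR1KO females it had 6.87, 7.28, 4.43, 6.16 and 8.33 CPM (log2 fold change -0.43, adjusted p = 0.164), and the interaction was -2.72 (adjusted p = 2.09e-05), or -2.79 without ESR1KO females 1 and 2. *Sdc1*, a heparan sulfate proteoglycan that binds remnants, had an interaction of -0.88 (adjusted p = 0.0233), which lost its call without WT female 1 or 2, or WT male 2 or 3, with an adjusted p of up to 0.0777 (without WT male 2), and was -0.76 (adjusted p = 0.0140) without ESR1KO females 1 and 2. Its difference between the WT sexes (log2 fold change 0.69, adjusted p = 0.0116) lost its call without WT female 1, or WT male 2 or 3, with an adjusted p of up to 0.0599 (without WT male 2). That of *Lrp2*, megalin (log2 fold change -1.94, adjusted p = 0.0123), lost its call without WT female 2, or WT male 1, with an adjusted p of up to 0.0645 (without WT female 2). *Cd36*, the fatty acid and lipoprotein scavenger receptor, rose in ESR1KO males (log2 fold change 1.12, adjusted p = 0.0345), and lost its call without WT male 1, 2 or 3, or ESR1KO male 1 or 3, with an adjusted p of up to 0.202 (without WT male 3). *Scarb1*, the HDL receptor, fell in ESR1KO females, with 104 to 127 CPM in WT and 51.5 to 91.0 CPM in ESR1KO females (log2 fold change -0.59, adjusted p = 0.0370). It lost its call without WT female 1, 2 or 3, or ESR1KO female 2, or ESR1KO male 1, with an adjusted p of up to 0.143 (without WT female 1). In the fit without ESR1KO females 1 and 2 it had a log2 fold change of -0.39 with an adjusted p of 0.0513. In males *Scarb1* did not pass (log2 fold change -0.37, adjusted p = 0.391). When ESR1KO females 1 and 2 were left out, 1 gene of the list was called in females, *Lrpap1*, higher, beside 4.47% of all genes. The list medians were 0.27 for the WT sexes, -0.27 for the females and 0.16 for the males.

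**Figure D5:**
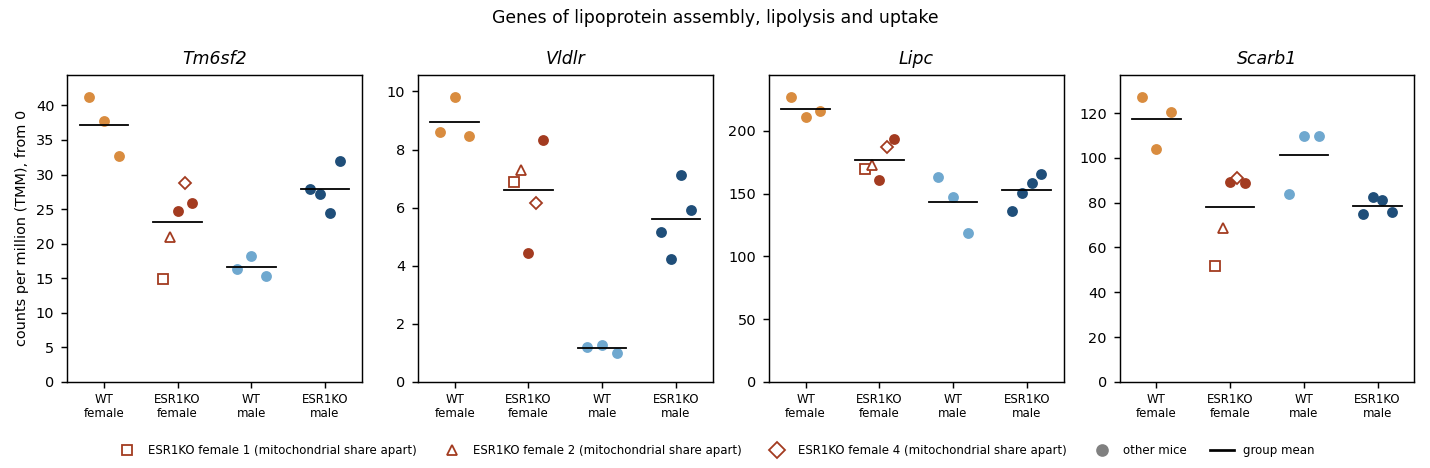
CPM of *Tm6sf2*, *Vldlr*, *Lipc* and *Scarb1* in each mouse, with a bar at the group mean and axes that start at 0. For *Tm6sf2* and *Vldlr* all WT females lie above all WT males, while the ESR1KO sexes overlap; ESR1KO females 1 and 2 (open square and triangle) are the lowest of the 15 for *Scarb1*.

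Among 30 transcription factors that act on apolipoprotein genes, 3 were called between the genotypes in females and 2 in males, beside 5.71% and 1.42% of all genes. The targeted *Esr1* was 1 of them each time, which leaves 2 and 1. *Hnf4a*, the hepatocyte factor that drives many apolipoprotein genes, had log2 fold changes of -0.23 in females and -0.34 in males (adjusted p = 0.220 and 0.199). *Ppara*, the fatty acid sensor, had log2 fold changes of -0.11 and 0.17. *Creb3l3*, which drives *Apoa4*, *Apoa5* and *Apoc2*, had -0.12 and -0.20, and none of these passed. Besides *Esr1*, *Pparg*, a receptor that drives lipid storage, rose in ESR1KO females (log2 fold change 1.32, adjusted p = 0.00779) and males (log2 fold change 1.46, adjusted p = 0.0110), and *Srebf2*, the regulator of sterol synthesis, fell in females (log2 fold change -0.79, adjusted p = 0.00913). *Pparg* and *Srebf2* were also called without ESR1KO females 1 and 2. Leaving out WT female 3 took *Pparg* in females to an adjusted p of 0.0521, leaving out WT male 3 took it in males to 0.0903, and leaving out WT female 1 took *Srebf2* to 0.0776. Beside *Pparg*, *Cd36*, *Pltp* and *Lpl*, which fat tissue also expresses, the summed CPM of 4 adipocyte markers was 0.0231 to 0.138 in WT females, 0.272 to 1.10 in ESR1KO females, 0.0494 to 0.0951 in WT males and 0.918 to 9.33 in ESR1KO males. *Cfd* made up nearly all of it, and *Lep* had a count of 0 in all libraries. The part of fat tissue in these results was not tested.

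Of 20 other apolipoprotein and apolipoprotein-like genes tested, 4 were called by edgeR in some comparison. There were 2 between the WT sexes (4.87% of all genes), 1 between the genotypes in females (5.71%) and 1 in males (1.42%). Between the ESR1KO sexes (0.272%) and for the interaction (1.94%) there were 0. DESeq2 called *Saa1*, *Saa3* and *Saa4* for the interaction, positive (3.36% of all genes), and in males, lower in ESR1KO mice (2.83%). Between the WT sexes DESeq2 called these and *Saa2*, lower in females (6.94%). In females it called *Apool* and *Apoo*, higher in ESR1KO mice (8.7%), and between the ESR1KO sexes 0 (2.58%). *Saa1* and *Saa2*, acute phase proteins of HDL, were lower in WT females than in WT males (log2 fold changes -2.78 and -2.40, adjusted p = 0.00216 and 0.0228). WT males had 74.1, 24.3 and 182 CPM of *Saa1* and 25.3, 8.70 and 102 of *Saa2*, against 9.01 to 16.7 and 5.44 to 10.4 in the WT females. *Saa2* lost its call without WT female 1, 2 or 3, or WT male 3, with an adjusted p of up to 0.196 (without WT male 3), where its log2 fold change was -0.98. That of *Saa1* was -1.85 without the same male. *Saa1* and *Saa2* are close copies between which reads can be split. *Saa4* fell in ESR1KO males (log2 fold change -1.03, adjusted p = 0.00491). *Apool*, a protein of the mitochondrial inner membrane, rose in ESR1KO females (log2 fold change 0.47, adjusted p = 0.0455). Without ESR1KO females 1 and 2 its adjusted p was 0.103, and it lost its call in 13 of the 15 fits that left out 1 library, with an adjusted p of up to 0.162 (without WT female 2). The median of the list was -0.06 for the WT sexes, 0.03 for the females and -0.01 for the males.

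Feeding and the hour of collection can move apolipoprotein transcripts, so lists for both were examined. Of 16 genes of the fasting and feeding response, 3 rose in ESR1KO males, where 1.42% of all genes were called. These were *Pdk4*, *Scd1* and *Pnpla3*, of which *Pdk4* is induced by fasting and the other two by feeding. *Pdk4* (log2 fold change 1.51, adjusted p = 0.0156) lost its call without WT male 1 or 3, or ESR1KO male 3, with an adjusted p of up to 0.0885 (without WT male 1). *Scd1* (log2 fold change 1.89, adjusted p = 0.0396) lost its call in 7 of the 15 fits that left out 1 library, with an adjusted p of up to 0.167 (without WT male 3). *Pnpla3* (log2 fold change 4.11, adjusted p = 0.0486) lost its call in 11 of the 15 fits that left out 1 library, with an adjusted p of up to 0.220 (without WT male 3), and was not called without ESR1KO females 1 and 2. *Pnpla3* was also higher in WT females than in WT males (adjusted p = 0.0469), 1 of the 16 genes, beside 4.87% of all genes. There it lost its call in 11 of the 15 fits that left out 1 library, with an adjusted p of up to 0.233 (without WT female 2). Of 14 clock genes, 1 was called between the genotypes in females, beside 5.71% of all genes, and 1 between the WT sexes, beside 4.87%. *Per3* fell in ESR1KO females (log2 fold change -0.59, adjusted p = 0.0126) and lost its call without WT female 2 or 3, with an adjusted p of up to 0.0634 (without WT female 3). Without ESR1KO females 1 and 2 it had -0.53 (adjusted p = 0.0465), and *Bhlhe41* was then called as well, higher in ESR1KO females and in the interaction. *Bhlhe41* was lower in WT females than in WT males (log2 fold change -1.81, adjusted p = 0.0170) and lost its call without WT female 1 or 2, or WT male 1 or 2, with an adjusted p of up to 0.0848 (without WT female 1). The part of feeding and of the clock in the apolipoprotein values was not tested.

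Promoter windows of RefSeq (GRCm38.p6) were found for 8 of the 10 genes, 12 windows in all, and the 250 bases before each start were searched on both strands. The palindromic estrogen response element without a mismatch was in none of them, and in 0.0639% of the 32851 windows of the table. The AGGTCA unit of that element was in a window of *Apoa2* and of *Apoc2*, and in 14% of all windows. The start of that *Apoa2* window lies 3490 bases before the GENCODE start of the gene, and the window at the gene start had no such match. Some genes have several windows, so genes with a match and shares of windows are unlike units. TATAAA was found before *Apoa2*, *Apoa5*, *Apob* and *Apoe*, and in 12.4% of all windows. The matches are letters in these windows and say nothing of binding.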

How the data were processed

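RNA was measured in 15 mouse livers, 1 library each. The deposited table holds whole-number read counts per gene, without normalization. The authors removed ribosomal RNA, read both ends of the fragments on a NovaSeq6000 and ran libraries of low depth again. Reads were trimmed (Trimmomatic 0.36), placed on GRCm38 (STAR) and counted (HTSeq). The annotation release, strand setting and treatment of reads that match several places are not given in the sources used here.

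Counts were tested with edgeR 4.0.16 in R 4.3.3 (quasi-likelihood test, TMM scaling, filterByExpr over the 4 groups, 1 mean per group over all 15 libraries), with Benjamini-Hochberg adjustment over 17655 genes and 0.05 as the threshold. Libraries had 27799061 to 78624766 counts, and the precision of a value is set by the spread between mice. Levels are CPM, counts scaled to a common effective library size. Levels per kilobase used the union of GENCODE M21 exons. The labels do not say that mice of the same replicate number share a litter or day, so no pairing was used. DESeq2 1.42.0, other scalings, filters and samples were tried as alternatives. The method was tested on simulated data with changes larger than any measured here for the apolipoprotein genes. Its power to find differences of their size was not tested.

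Besides the 10 genes, 14 genes of the pathway lists were to be named always, and others where adjusted p was under 0.05, at most 6 per list and comparison; a few of these are not reported here. The genes most like *Apoa4* and *Apob* were taken by Pearson's r of log2 CPM. The members and lists were chosen with earlier results of these data known.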

Additional observations from a re-analysis of the deposited data

Results flagged for a closer look

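For 3 genes that act with the apolipoproteins, the effect of ESR1 loss differed between the sexes by the interaction test of edgeR. *Tm6sf2* had an interaction of -1.44 on the log2 scale (adjusted p = 0.00242), with a log2 fold change of -0.69 in females and 0.75 in males. *Vldlr* had an interaction of -2.72 (adjusted p = 2.09e-05), with -0.43 in females and 2.29 in males. *Sdc1* had an interaction of -0.88 (adjusted p = 0.0233), with -0.32 in females and 0.56 in males, and its adjusted p rose to as much as 0.0777 when 1 library, WT male 2, was left out. Of the 22 groups of 4 or 5 samples examined for a single distant library, over the 10 genes and their summed share of counts, 0 had one by Dixon's test.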

How the results depend on the processing

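Over the 10 apolipoprotein genes and 5 comparisons, 506 of 540 values kept direction and side of the threshold under the alternatives other than single left-out libraries, 16 newly passed and 18 changed sign. Of 635 values of other named genes, 591 kept both, 29 lost their call, 7 gained one and 8 changed sign. The causes were not tested. Leaving out ESR1KO females 1 and 2, or 1, 2 and 4, and scaling without mitochondrial genes were chosen after seeing the data.

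Counts of the 10 genes called are given here with the share of all genes called by the same choice in brackets. Between the WT sexes the count, 0 as reported (4.87%), was 2 with DESeq2 (6.94%) and 1 with the compared groups alone (7.55%). It was 2 without ESR1KO females 1 and 2 (8.99%), 2 without females 1, 2 and 4 (9.72%) and 3 unadjusted (17.3%). Without single libraries it was 0 to 1 (3% to 6.25%). Between the ESR1KO sexes it was 2 unadjusted (17.5%). Between the genotypes in females it was 1 with total counts (5.59%), 3 with DESeq2 (8.7%) and 1 with no filter (3.39%). It was 2 there with a filter of 1 CPM in 3 libraries (7.35%) and 4 unadjusted (22.5%). Without single libraries it was 0 to 2 (2.29% to 8.74%). In males it was 1 with DESeq2 (2.83%) and 2 unadjusted (11.9%), and for the interaction 2 unadjusted (14.3%). A fit with a replicate block called 1 gene in females (7.83%), *Apom* (log2 fold change -0.75, adjusted p = 0.0381), and gave *Apoa4* 0.0611 between the ESR1KO sexes. Same-numbered libraries had correlations of their deviations from -0.195 to 0.14 over 19 pairs, and 1 of 15 libraries was closest to its own number.

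Other signs turned as follows. With no filter, *Apoa2* and *Apom* between the WT sexes had -0.0099 and -0.0026, and the interactions of *Apoa2* and *Apoc1* were 0.0559 and 0.0451. Scaling without mitochondrial genes gave these interactions 0.0348 and 0.0233, and DESeq2 size factors and DESeq2 gave *Apoa2* 0.002. Total counts gave 0.0182 to *Apoa4* and 0.0245 to *Apob* between the ESR1KO sexes. Without ESR1KO females 1 and 2, and without 1, 2 and 4, *Apoa2* between the ESR1KO sexes had -0.0839 and -0.11 and *Apoa5* 0.0605 and 0.0172, and *Apoa4* had 0.38 without 1 and 2. In females the same exclusions gave *Apoe* 0.22 and 0.0849, *Mttp* 0.13 and 0.0979, *Abca1* 0.009 and 0.024, *Creb3l3* 0.0619 and 0.0136, and *Ppara* 0.11 and 0.0823.

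Without single libraries, signs turned for these ranges: between the WT sexes *Apoa2* -0.0205 to 0.10; between the ESR1KO sexes *Apoa2* -0.0225 to 0.088, *Apoa4* -0.50 to 0.18, *Apoa5* -0.16 to 0.0029 and *Apob* -0.0653 to 0.0034; in females *Apoe* -0.27 to 0.0568 and *Mttp* -0.11 to 0.0717; in males *Apoa1* -0.15 to 0.0069, *Apoc3* -0.0493 to 0.11 and *Lipc* -0.0234 to 0.20; and for the interaction *Apoa2* -0.0665 to 0.0559 and *Apoc1* -0.12 to 0.0608. The low counts of *Apoc2*, 65 to 191 per library, limit its precision.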
